A study of Mus musculus with 6 samples.

Results

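The genes described here carry the signal from a death receptor at the cell surface to apoptosis or to necroptosis: Fas, Fadd, Casp8, Cflar, Ripk1, Ripk3 and Mlkl. They were taken by name, as the rows of the deposited table whose platform annotation gives exactly 1 gene symbol and that symbol is a member. Of the 7 genes, 6 have such a row, 1 each, among 22180 genes with a row in all, and Ripk1 is not named in the annotation used here and was not analysed. The 6 samples are RNA from sorted mouse cells, hybridised singly to Mouse Gene 2.0 ST arrays. All mice had been given Th9 cells, a helper T cell type that makes interleukin-9, and tissue was taken 10 days later. Cells were flow-sorted as inflammatory monocytes (CD11b+, CD11c-, Ly6C high) taken either out of the spleen (3 arrays) or out of a tumor (3 arrays). The labels give Th9 as the strain of both groups, and the sources used here name neither the mouse strain, nor the age, nor the tumor type. Mice without Th9 cells were not analysed here, so each comparison is between tissues of treated mice.

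Fas is a receptor of the TNF receptor superfamily whose ligand is made by activated T cells and NK cells. Bound Fas recruits the adaptor Fadd, which gathers caspase-8 (Casp8), and caspase-8 dimers start apoptosis by proteolysis. Cflar encodes c-FLIP, a relative of caspase-8 without catalytic activity that pairs with it and, in its long form, restrains death while leaving the activity that cuts the RIP kinases. Where caspase-8 is inactive, the kinases Ripk1 and Ripk3 bind each other, Ripk3 phosphorylates the pseudokinase Mlkl, and Mlkl breaks the plasma membrane, which is necroptosis. In macrophages and monocytes the same proteins also act in inflammatory signalling, and several of the genes are known to respond to interferon or to NF-kB. An array reads RNA only and says nothing of cleavage or phosphorylation.

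The upstream sequences of the 4 genes that rose are shown, because these genes moved together. They are the 300 bases from 250 before to 50 after the annotated start, from RefSeq on the build GRCm38.p6. Capitals mark matches to a motif. All 7 members matched an entry of the promoter table, with 8 windows in all since Ripk1 has 2.
Mlkl, chr8:111338156-111338455, minus strand: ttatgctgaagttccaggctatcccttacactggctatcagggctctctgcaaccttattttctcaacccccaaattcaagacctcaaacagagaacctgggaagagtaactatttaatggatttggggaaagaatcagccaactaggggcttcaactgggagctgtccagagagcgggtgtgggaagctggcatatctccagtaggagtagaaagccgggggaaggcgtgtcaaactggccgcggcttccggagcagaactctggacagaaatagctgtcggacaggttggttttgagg
Cflar, chr1:58711241-58711540, plus strand: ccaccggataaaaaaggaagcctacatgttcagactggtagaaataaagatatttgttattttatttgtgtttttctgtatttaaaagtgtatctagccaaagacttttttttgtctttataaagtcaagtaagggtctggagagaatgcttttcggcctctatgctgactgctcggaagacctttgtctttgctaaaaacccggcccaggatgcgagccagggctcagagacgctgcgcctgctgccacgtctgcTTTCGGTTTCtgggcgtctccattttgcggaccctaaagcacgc
Casp8, chr1:58802252-58802551, plus strand: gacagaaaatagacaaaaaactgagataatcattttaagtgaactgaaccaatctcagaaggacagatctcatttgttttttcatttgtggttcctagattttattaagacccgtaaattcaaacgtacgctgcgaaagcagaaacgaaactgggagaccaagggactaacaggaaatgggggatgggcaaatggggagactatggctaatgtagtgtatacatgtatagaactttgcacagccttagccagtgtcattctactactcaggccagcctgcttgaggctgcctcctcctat
Fas, chr19:34290409-34290708, plus strand: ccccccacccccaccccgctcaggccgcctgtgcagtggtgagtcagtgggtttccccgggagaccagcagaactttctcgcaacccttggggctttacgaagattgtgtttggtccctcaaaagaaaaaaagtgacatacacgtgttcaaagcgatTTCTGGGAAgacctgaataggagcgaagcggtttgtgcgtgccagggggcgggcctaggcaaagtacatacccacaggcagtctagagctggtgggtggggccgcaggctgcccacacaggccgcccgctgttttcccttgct

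These windows were searched on both strands for 3 motifs: the core of the interferon-stimulated response element, GAAANNGAAA, the gamma-activated site bound by STAT factors, TTCNNNGAA, and the NF-kB consensus site. The first was present in 3.44% of 32851 promoter windows of the same length, the second in 8.30% and the NF-kB site in 4.51%. The Cflar window held 1 match to the interferon element core, read on the opposite strand at bases 257 to 266 of the window, just past the start site. The Fas window held 1 match to the gamma-activated site at bases 158 to 166. Neither the Mlkl nor the Casp8 window held a match to any of the 3. The windows of Fadd and Ripk3, whose levels did not differ detectably, held 0 matches as well. Of the other windows, 1 of the 2 of Ripk1 held 1 interferon element core and 2 gamma-activated sites, 1 of which overlaps the interferon element. A match is a run of letters in a short window and is not a measured site.

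The median of log2(intensity + 1) was 4.50 or 4.51 on each array with replicate number 1 or 2, but 4.73 (spleen) and 4.76 (tumor) where the number was 3. Any pairing of the arrays numbered 1 and 2 shared between 2449 and 3534 identical values among 41345 probe sets, while those numbered 3 shared 0 with them and 12 with each other. The labels do not say whether RMA was run on all 6 arrays at once, and a separate run for the arrays numbered 3 was not tested, so levels set across these sets may not be on 1 scale. Both sets hold both tissues, so counts and some genes are also given with the replicate number or the set as a block. Some are also given among numbers 1 and 2 alone. Of the genes behind the sort, Itgax, which encodes CD11c, averaged 11.16 on the spleen and 10.31 on the tumor arrays although the sort was negative for it, and Ly6c1 was low at 3.65 and 4.01, so groups are named after their labels. Ly6c2 rose by 1.48, from 6.81 in spleen to 8.29 in tumor. Itgam fell by 0.85, from 10.04 to 9.19, and Ccr2 by 0.93, from 6.86 to 5.93. Adgre1 stood at -0.57 without a call. It was called lower with the replicate block (limma adjusted p = 0.00257) and among numbers 1 and 2 alone (0.0162). Markers of other cell types were read from 12 lists. Of the tested B cell, red cell and pigment cell genes, 0 of 5, 0 of 3 and 0 of 4 were called. Of the epithelial, fibroblast and neutrophil genes, 0 of 5, 0 of 5 and 0 of 8 were called. With 10.6% of all tested genes called, a count of 0 in so short a list says little. Summed intensity of the 8 neutrophil genes ran from 1302 to 1353 in spleen and from 1110 to 1170 in tumor. Of these, S100a8 stood at 9.12 and 8.75 and Ngp at 8.77 and 8.73. With the replicate block 5 more markers were called: S100a8 (neutrophil), Col1a1 (fibroblast), Cdh1 (epithelial) and Cd209a (dendritic cell) lower, between -0.47 and -0.37, and Dcn (fibroblast) higher, at 0.38. Without it the called markers were Cd3g (lower) for T cells, Klrk1 (higher) for NK cells, Zbtb46, Dpp4 and Ccr7 (higher) for dendritic cells, Bst2 and Tcf4 (higher) for plasmacytoid dendritic cells, Ppbp (lower) for platelets, and Kdr (higher) and Vwf (lower) for endothelial cells. Summed intensity of the 6 dendritic cell genes with a row ran from 4046 to 4473 on the spleen arrays and from 5630 to 6008 on the tumor arrays. Most of each sum was Ccr7, at 3072, 3195 and 2825 in spleen and at 4501, 4308 and 4406 in tumor. Of the genes not called in the fit without a block, Xcr1 stood at -0.29, Cd209a at -0.41 and Flt3 at 0.09. For the 5 plasmacytoid genes it ran from 873 to 1351 and from 2629 to 3226, with the defining marker Siglech near background at 4.52 and 4.62. For the 6 NK cell genes it ran from 215 to 295 and from 555 to 851, with Klrk1 going from 7.44 to 9.18 and Ncr1 near background, at 4.07 in spleen and no higher in tumor. Summed intensity of the 7 T cell genes with a row ran from 283 to 334 and from 186 to 248, that of the 4 platelet genes from 605 to 831 and from 261 to 286, and that of the 5 endothelial genes from 481 to 579 and from 555 to 762. Of the T cell genes, Cd3g fell by 1.36, and the others tested ran from -0.36 (Cd4) to 0.06 (Cd3e) without a call. Most of the platelet sum in spleen was Ppbp, at 455, 552 and 697 there and at 125, 129 and 168 in tumor. Pf4 stood at -0.30, Gp9 at -0.13 and Itga2b at 0.11, none of them called. The part of these cell types in the results was not tested. In sorted bulk RNA a change in the share of a cell type and a change in RNA per cell cannot be told apart.

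On the tumor arrays the end of the necroptosis branch and the brake on caspase-8 rose most: Mlkl was 5.74-fold and Cflar 3.70-fold higher than on the spleen arrays. Casp8 and Fas rose less, 1.88-fold and 1.83-fold. The adaptor Fadd, which links Fas to Casp8, and the kinase Ripk3, which acts on Mlkl, differed by less than the spread between arrays. For Fadd that spread includes the higher values of the arrays numbered 3. By limma, 4 of 6 members were higher at an adjusted p under 0.05 (Benjamini-Hochberg over 18458 genes) and 0 lower, where 5.73% of all tested genes were called higher and 4.85% lower, 10.6% together. The same 4 members had groups that did not overlap, against 9.81% of the tested genes on that side, and 2 of them rose at least 2-fold with a call, against 3.74%. The median difference over the 6 members was 0.89, and over all tested genes it was -0.05. All 6 members passed the filter on low values on all 6 arrays, the lowest single value being 6.29 on a scale where the 25th percentile of an array lay between 3.46 and 3.61. Levels are log2(intensity + 1), and differences are tumor minus spleen on that scale with their standard error (SE) from limma. The labels do not say whether a group's samples are from different mice, so each p-value weighs a difference only against the scatter among these arrays, which may be technical.

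**Figure D1:**
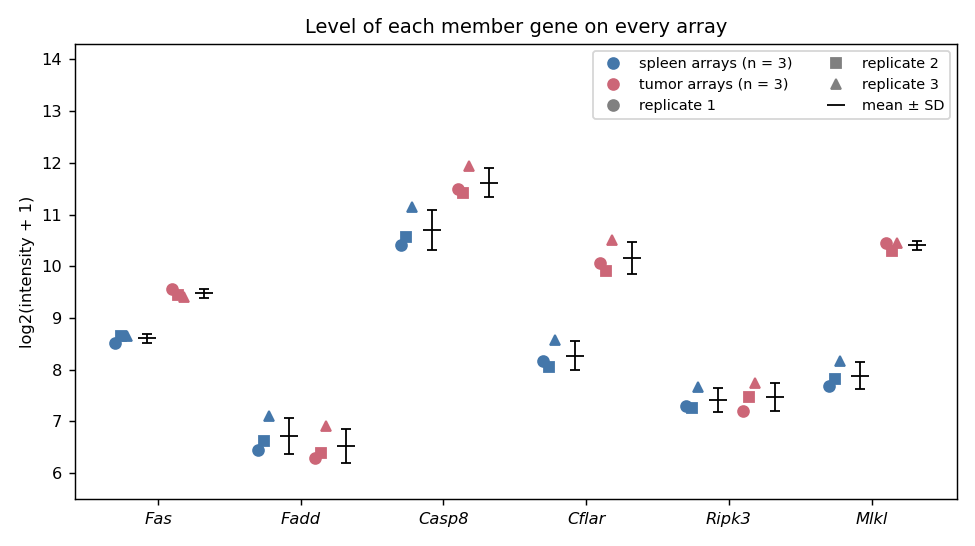
Level of each member gene, as log2(intensity + 1), on the 3 spleen arrays (blue) and the 3 tumor arrays (red), with the marker shape giving the replicate number and bars the mean ± SD. Tumor values lie above all spleen values for Fas, Casp8, Cflar and Mlkl and overlap them for Fadd and Ripk3.

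Fas, the receptor (probe set 17358797, chromosome 19), had levels of 8.51, 8.65 and 8.66 on spleen arrays 1 to 3 and of 9.57, 9.45 and 9.41 on tumor arrays 1 to 3. All tumor values lay above all spleen values, and the values within each group were close together, with an SD of 0.08 in both. The difference was 0.87 ± 0.14 (limma adjusted p = 0.00514), with a 95% interval from 0.55 to 1.19. Fas is the called member whose tumor array 3 was the lowest of its group, although that array was the brightest tumor array for each of the other members but Mlkl. Within numbers 1, 2 and 3 the differences were 1.06, 0.80 and 0.76.

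Fadd, the adaptor that links the receptor to caspase-8 (probe set 17498461, chromosome 7), stood at 6.44, 6.62 and 7.11 in spleen and at 6.29, 6.38 and 6.90 in tumor. The groups overlapped, and the arrays numbered 3 were the highest in both. The difference was -0.20 ± 0.23 (limma adjusted p = 0.774), with a 95% interval from -0.73 to 0.33. The differences within numbers were -0.15, -0.24 and -0.21, lower in tumor each time, and with the replicate number as a block Fadd was not called either (adjusted p = 0.148). With the set as a block the difference was -0.20 ± 0.09, again without a call (limma adjusted p = 0.130).

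Casp8, the initiator caspase (probe set 17213213, chromosome 1), had levels of 10.41, 10.56 and 11.15 in spleen and of 11.49, 11.42 and 11.94 in tumor. The groups did not overlap, but the highest spleen array, number 3, came close to the lowest tumor array, number 2. The difference of 0.91 ± 0.23 was called (limma adjusted p = 0.0413), with a 95% interval from 0.38 to 1.44. The call was lost on leaving out spleen 1, spleen 2, tumor 1, tumor 2 or tumor 3 (adjusted p from 0.0669 to 0.151), and without spleen 3 it held (adjusted p = 0.0103). It was also lost with no filter on low values (adjusted p = 0.0501). With the replicate block the adjusted p was 5.0e-04, and among numbers 1 and 2 alone it was 0.0127. Differences within numbers 1, 2 and 3 were 1.08, 0.86 and 0.79.

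Cflar, which encodes the caspase-8 inhibitor c-FLIP (probe set 17213192, chromosome 1), had levels of 8.18, 8.05 and 8.58 in spleen and of 10.06, 9.90 and 10.50 in tumor. The lowest tumor value lay well above the highest spleen value. The difference was 1.89 ± 0.21 (limma adjusted p = 7.9e-04), with a 95% interval from 1.40 to 2.37. Differences within the 3 numbers were nearly the same, at 1.89, 1.85 and 1.92. Cflar has 1 probe set in the comparison, so the long and short forms of c-FLIP were not told apart. Cflar and Casp8 are neighbours on chromosome 1 in the RefSeq table. The genes directly beside the pair there, Flacc1 next to Cflar and Gm28802 next to Casp8, have no tested value. None of the 4 tested genes on either side was called: Ndufb3 stood at -0.34 ± 0.26 and Fam126b at -0.18 ± 0.27 beyond Cflar, and Trak2 at -0.14 ± 0.20 and Stradb at -0.02 ± 0.26 beyond Casp8 (limma adjusted p from 0.589 to 0.987). These flanking genes were looked up after the values of the pair had been seen.

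Ripk3, the kinase that activates Mlkl (probe set 17306906, chromosome 14), stood at 7.30, 7.27 and 7.67 in spleen and at 7.19, 7.48 and 7.74 in tumor. The groups overlapped, and tumor array 1 was the lowest of all 6. The difference was 0.06 ± 0.19 (limma adjusted p = 0.953), with a 95% interval from -0.38 to 0.50, and within numbers it was -0.10, 0.21 and 0.07. The interval does not exclude a change within its ends. With the set as a block the difference was 0.06 ± 0.10, again without a call (limma adjusted p = 0.709).

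Mlkl, the effector that permeabilizes the membrane (probe set 17513076, chromosome 8), had levels of 7.68, 7.81 and 8.17 in spleen and of 10.46, 10.30 and 10.46 in tumor. The gap between the groups was far wider than either group. The difference was 2.52 ± 0.17 (limma adjusted p = 4.2e-05), with a 95% interval from 2.13 to 2.91, the largest among the members. It ranked 147 of 18458 genes by size of rise, and that of Cflar ranked 258. Casp8 and Fas ranked 821 and 878. Differences within numbers were 2.78, 2.49 and 2.29.

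**Figure D2:**
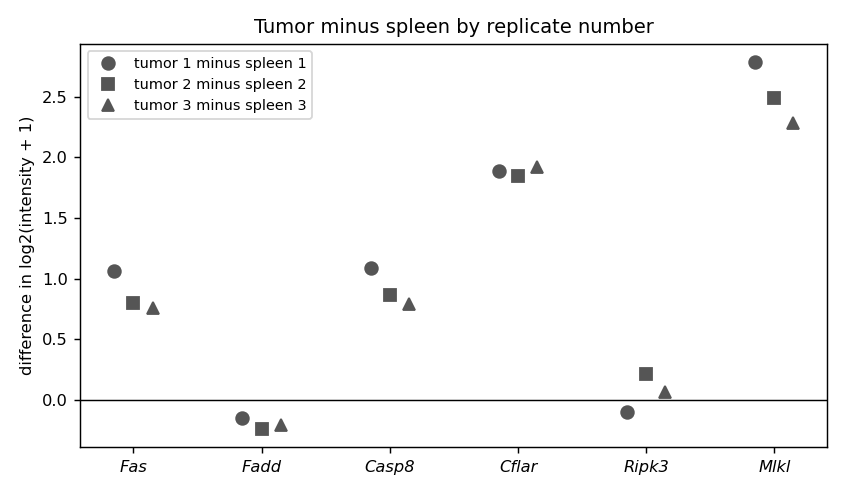
Difference of log2(intensity + 1), tumor minus spleen, for each member gene within each replicate number (circle 1, square 2, triangle 3), with the line at 0 marking equal levels. Mlkl, Cflar, Casp8 and Fas lie above 0 in all 3 numbers, Fadd lies below 0 in all 3, and Ripk3 lies on both sides.

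Since members of 1 pathway changed by different amounts, 4 pairs of them were also set against each other within each array. This removes any brightness the array gives to all its probes. The height of such a ratio depends on the probes and has no meaning by itself, so only its change is read. The log2 ratio of Cflar to Casp8 was -2.23, -2.51 and -2.57 on the spleen arrays and -1.43, -1.52 and -1.44 on the tumor arrays, a change of 0.97. For Mlkl to Ripk3 it was 0.38, 0.54 and 0.50 against 3.27, 2.82 and 2.72, a change of 2.46. For Fas to Fadd it was 2.06, 2.04 and 1.54 against 3.28, 3.07 and 2.51. That is a change of 1.07, from 1.88 ± 0.29 (SD, n = 3) to 2.95 ± 0.39. The arrays numbered 3 were the lowest of both groups there, so an offset that differs between probes stays in the ratio. For Mlkl to Casp8 the change was 1.61, from -2.82 ± 0.14 to -1.21 ± 0.24. Groups did not overlap in any of the 4 ratios, which were picked after the values had been seen. A two-sided exact permutation test gave p = 0.1 for each, before and after adjustment over the 4, and 0.1 is the smallest p that 3 arrays against 3 allow.

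**Figure D3:**
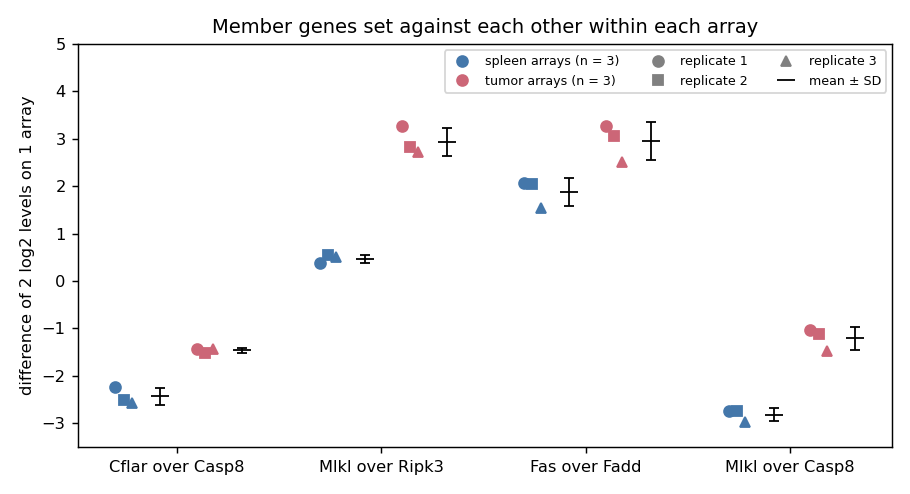
Difference of the log2 levels of 2 member genes on the same array, for 4 pairs of genes on the 3 spleen (blue) and 3 tumor (red) arrays, with marker shape for the replicate number and bars for the mean ± SD. In each pair the tumor values lie above the spleen values, with changes of 0.97, 2.46, 1.07 and 1.61 from left to right.

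Other genes of the pathway were read from 4 lists that together hold 57 genes, of which 53 were tested. The other 4 were not analysed here. These lists were chosen with earlier results of these data known, so their counts only describe them. In all, 18 of the 53 were higher and 2 lower at an adjusted p under 0.05, with a median difference of 0.34. Of all tested genes, 5.73% were called higher and 4.85% lower in that fit. With the replicate number as a block, 28 of the 53 were higher and 8 lower, where 11.7% of all tested genes were called higher and 17.3% lower in that fit. Among numbers 1 and 2 alone 20 were higher and 7 lower, where 7.51% of all genes were called higher and 8.39% lower, and the 4 called members were called there too. Of the 20 pathway calls, 12 held with each array left out in turn. The matching share of all called genes was not counted, so the 12 have no background to be read against.

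Among the ligands and other death receptors 3 of 12 were higher and 0 lower, beside 5.73% and 4.85% of all tested genes. All 3 were ligands of the TNF superfamily. Tnfsf10, which encodes TRAIL, rose by 5.29 ± 0.22 (limma adjusted p = 3.7e-06), from intensities of 35.6, 31.3 and 45.4 in spleen to 1306, 1262 and 2009 in tumor. Tnfsf15, the ligand of the death receptor DR3, rose by 3.20 ± 0.16, from 98.6, 98.6 and 126 to 987, 903 and 1107. Tnf itself rose by 2.65 ± 0.18, from 316, 359 and 450 to 2269, 2089 and 2699. None of these groups came near overlapping. Fasl, the ligand of Fas, was close to background in both tissues, at 3.78 ± 0.08 and 3.95 ± 0.10 (SD, n = 3), with a difference of 0.17 ± 0.14 (adjusted p = 0.613). Receptors other than Fas were not called: Tnfrsf1a, the main receptor of TNF, stood at 0.50 ± 0.14 (adjusted p = 0.0689), Tnfrsf10b, the mouse receptor of TRAIL, at -0.74 ± 0.33 (adjusted p = 0.238), and Tnfrsf21, or DR6, at -0.68 ± 0.20 (adjusted p = 0.076). With the replicate block 4 of the 12 genes were higher and 3 lower. Those added were Tnfrsf1a (limma adjusted p = 0.00531), Tnfrsf10b (8.7e-04), Tnfrsf21 (0.00161) and the decoy-like receptor Tnfrsf22 (0.0133). Without the block Tnfrsf22 stood at -0.40 ± 0.14 (limma adjusted p = 0.111). Of all tested genes, 11.7% were called higher and 17.3% lower with that block. The median difference of this list was 0.10.

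The list of receptor complex and ubiquitin genes holds adaptors and kinases besides enzymes that add or remove ubiquitin chains. In it 8 of 19 genes were higher and 1 lower, beside 5.73% and 4.85% of all tested genes. Its median difference was 0.53. Birc2, the ubiquitin ligase cIAP1, rose by 1.41 ± 0.15 (limma adjusted p = 5.8e-04), with intensities of 215, 219 and 237 in spleen and 623, 519 and 649 in tumor. Tnfaip3, the ubiquitin-editing enzyme A20, rose by 1.40 ± 0.17 (adjusted p = 0.0012), and Rnf31, the catalytic subunit HOIP of the linear ubiquitin ligase, by 1.33 ± 0.24 (adjusted p = 0.00938). Of its partners, Rbck1 stood at 0.34 ± 0.16 and Sharpin at -0.11 ± 0.15, both without a call. Otulin, which removes linear chains, fell by 0.67 ± 0.13 (adjusted p = 0.0147), from 183, 197 and 194 to 117, 124 and 119. Tbk1, Ikbkb, Tab2, Traf2 and Tnip1 were the other called genes, between 0.53 and 1.07. Without 1 array the calls of Otulin and Ikbkb (spleen 1, spleen 2 or tumor 1), Tab2 and Tbk1 (spleen 1, spleen 2, tumor 1 or tumor 3), Traf2 (each array but tumor 1) and Tnip1 (each of the 6 arrays) were lost, with adjusted p up to 0.202, and those of Birc2, Tnfaip3 and Rnf31 held. Traf2 was also not called among numbers 1 and 2 (adjusted p = 0.125). With the replicate block 14 were higher and 1 lower, beside 11.7% and 17.3% of all tested genes.

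Of the apoptotic caspases and the mitochondrial arm 2 of 10 genes were higher and 0 lower, beside 5.73% and 4.85% of all tested genes. The list's median difference was -0.04. Apaf1, the scaffold of the apoptosome, rose by 1.38 ± 0.19 (limma adjusted p = 0.00266), from 320, 308 and 427 to 830, 810.4 and 1098. Cycs, cytochrome c, rose by 1.06 ± 0.16 (adjusted p = 0.00412). Cycs has 5 probe sets, whose differences ran from 0.43 to 1.45 and of which 2 hold identical values, so its size is uncertain. Casp9, the caspase that Apaf1 activates, stood at -0.33 ± 0.16 (adjusted p = 0.304), Casp6 at 0.12 ± 0.28 and Bid, which caspase-8 cleaves to reach mitochondria, at 0.43 ± 0.16 (adjusted p = 0.167). With the replicate block 4 were higher and 2 lower, beside 11.7% and 17.3% of all tested genes.

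The sensors that feed Ripk3 or bear on it had 5 of 12 genes higher and 1 lower, beside 5.73% and 4.85% of all tested genes. Their median difference was 0.25. With the replicate block 6 were higher and 2 lower, beside 11.7% and 17.3% of all tested genes. The added ones were Ppm1b and Cdc37, which without the block stood at 0.32 ± 0.15 and -0.35 ± 0.14. Zbp1, a sensor of Z-form nucleic acid that binds Ripk3 directly, rose by 3.77 ± 0.18 (limma adjusted p = 6.3e-06), from 135, 175 and 199 to 2097, 2377 and 2457. Tlr3, the endosomal receptor of double-stranded RNA, rose by 3.63 ± 0.18 (adjusted p = 7.3e-06), from 124, 128 and 166 to 1779, 1484 and 1931. Ticam1, the adaptor TRIF through which Tlr3 reaches Ripk3, fell by 0.80 ± 0.19 (adjusted p = 0.0331), from 110, 137 and 152 to 66.6, 68.8 and 93.3. That call was lost without spleen 2, spleen 3, tumor 1 or tumor 2 (adjusted p up to 0.149). Eif2ak2, the kinase PKR, rose by 2.76 ± 0.21 (adjusted p = 7.5e-05), and Adar, the editing enzyme that restrains Zbp1, also rose, by 1.75 ± 0.18 (adjusted p = 5.5e-04). Chmp4b, an ESCRT-III subunit of membrane repair, rose by 0.77 ± 0.14 (adjusted p = 0.00882), and lost the call without spleen 1 (adjusted p = 0.0523). Tlr4 stood at 0.17 ± 0.31 and Ifnar1 at 0.14 ± 0.19, without a call.

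**Figure D4:**
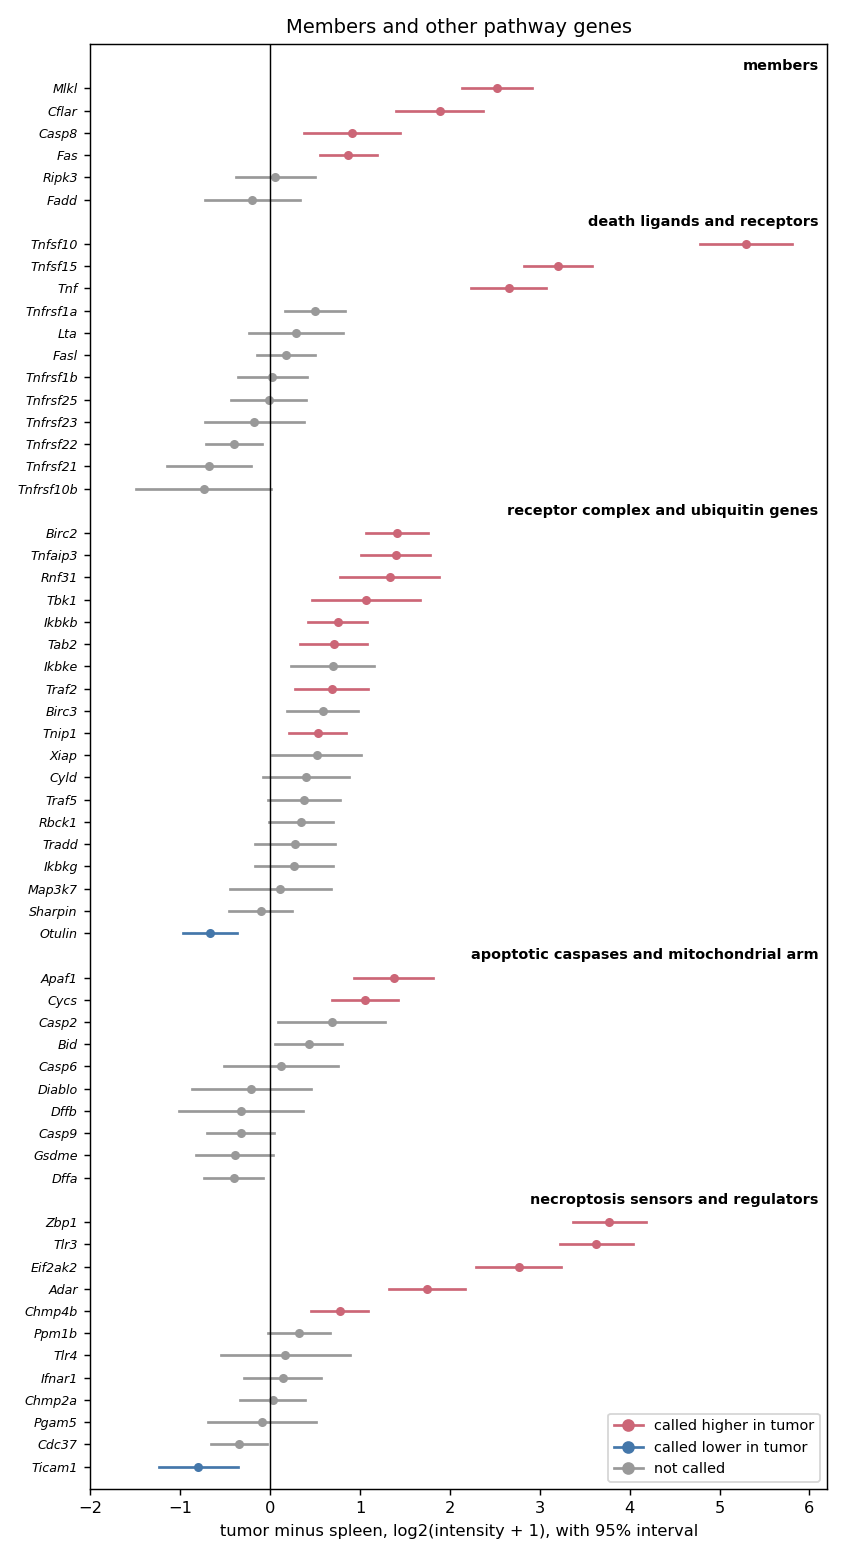
Difference of log2(intensity + 1), tumor minus spleen, for the 6 members and the 53 other pathway genes tested, with 95% intervals from limma, grouped by list and ordered by size. Red marks genes called higher, blue genes called lower and grey genes not called. Intervals of Mlkl and Cflar lie above 1, those of Fadd and Ripk3 span 0, and the largest differences are those of Tnfsf10, Zbp1 and Tlr3.

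For each member the 3 tested genes with the highest Pearson r over the 6 arrays were listed, with r from 0.995 upward. The arrays share the step between the tissues and the offset of the arrays numbered 3, and between 931 and 2816 of 18457 other genes reached an r above 0.9 with a given member. Mlkl was most like Dusp1 (difference 1.21 ± 0.14), Oasl2 (3.32 ± 0.20) and Il1rn (1.56 ± 0.15). Cflar was most like Rtp4 (3.22 ± 0.31), Slfn3 (2.87 ± 0.26) and B3gnt5 (2.88 ± 0.27). Fas was most like Fcgr4 (0.80 ± 0.13), Ppa1 (2.17 ± 0.17) and Pnp (2.59 ± 0.17). For Casp8 they were Gbgt1 (0.82 ± 0.21), Lgals8 (0.96 ± 0.24) and Med13l (0.39 ± 0.15, not called), with values that run high on the arrays numbered 3 as those of Casp8 do. Fadd had Nemp2, Arhgef7 and Trnau1ap nearest, at -0.25, -0.20 and -0.27, and Ripk3 had Chsy3, Slfnl1 and A130010J15Rik, at 0.05, 0.01 and 0.21, none of them called.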

How the data were processed

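Per the submitters' processing notes, the authors made the deposited intensity of each probe set and array with RMA (background correction, normalization and summary over probes), with no version given and no word on whether all 6 arrays were processed together. The values are linear and were used as log2(intensity + 1). Symbols came from the platform annotation: of 41345 probe sets, 23521 carry 1 symbol, 1814 several and 16010 none listed. The probe set with the highest mean stood for a gene, and genes above the 25th percentile of their array on at least 3 arrays were tested (18458). The 2 tissues were compared in R 4.3.3 with lmFit and eBayes of limma 3.58.1 (two-sided), adjusted by Benjamini-Hochberg over all genes tested. The fit was tested on simulated data with noise drawn independently for each gene and array. That simulation held no offset shared between arrays, so it cannot tell how the fit behaves with one. Equal replicate numbers deviated together (r = 0.36, 0.44 and 0.71 across genes for numbers 1 to 3), as did spleen 1 with tumor 2 (0.46) and spleen 2 with tumor 1 (0.35). Named were all members, up to 3 called pathway genes per list and direction or the 2 of smallest p, and the sort genes. Of the markers, the called ones and some of the highest were named. The 3 genes most like each member were named too. Other genes were named after their values were seen. Promoter windows came from RefSeq (GRCm38.p6). The sources used here do not name the build behind the array. Alternatives changed the normalization, pseudocount, filter, choice of probe set, variance prior, block and arrays. Members and lists were chosen with earlier results of these data known. The number of arrays limits the precision.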

Additional observations from a re-analysis of the deposited data

How the results depend on the processing

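Mlkl, Cflar and Fas kept direction and call under all 17 alternatives, with differences from 2.41 to 2.66, 1.71 to 2.04 and 0.79 to 0.93. Casp8 kept its direction (0.75 to 1.13) and lost its call under 7 of the 17. Fadd and Ripk3 were called under none (limma adjusted p from 0.13 to 0.994 and from 0.689 upward). With 1 array left out Ripk3 ran from -0.076 to 0.197, and it reversed to -0.014 without spleen 2 and to -0.076 without tumor 3. Members called numbered 3 or 4 throughout. The replicate block and the set block (numbers 1 and 2 against number 3, chosen after seeing the data) gave 36 and 37 pathway calls, and an adjusted p under 0.01 gave 13. With 1 array left out the pathway calls ran from 13 (without spleen 1 or spleen 2) to 19. Of all genes, 3506 were called after quantile normalization (1585 higher, 1921 lower), 3289 after median centring (1483 and 1806), 5346 with the replicate block, 5466 with the set block, 961 at an adjusted p under 0.01, 2936 among numbers 1 and 2 alone (chosen after seeing the data), and from 1011 to 1924 with 1 array left out (1147 without spleen 1, 1031 without spleen 2, 1011 without tumor 1), with 1057 higher and 895 lower in the fit reported. The causes were not tested. The block on replicate numbers changed no member's call.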
